A study of Mus musculus with 6 samples.

Results

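Corticosteroid receptors and 8 genes that respond to corticosteroids were followed in the hippocampus of mice with an altered DREAM repressor. The genes were Nr3c1, Nr3c2, Fkbp5, Sgk1, Tsc22d3, Zbtb16, Pdk4, Errfi1, Cdkn1a and Mt2. They were chosen by name, and every probe set annotated to exactly 1 of these 10 symbols was taken, which gave 24 of the 45101 probe sets on the array. RNA came from wild type mice and mice of the line L26, with 3 Affymetrix Mouse Genome 430 2.0 arrays per group. The sample labels number the arrays as replicates, and each array is taken here as 1 animal. All mice were adult males on the mixed background C57B6xCBA, in a basal state per the series title, and the wild type animals were littermates. L26 mice were homozygous for daDREAM, a dominant active form of DREAM, the calcium-binding transcriptional repressor encoded by Kcnip3. L26 is 1 transgenic line, so an effect of its insertion site cannot be told apart from one of the transgene, and the promoter that drives daDREAM is not given in the sources used here. The replicates are described by the submitters as independent biological ones.

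Corticosterone, the main glucocorticoid of the mouse, acts in the hippocampus through a high-affinity receptor, the mineralocorticoid receptor (Nr3c2), and a lower-affinity one, the glucocorticoid receptor (Nr3c1). Hormone-bound receptor enters the nucleus and binds glucocorticoid response elements, palindromes made of half-sites spaced by a few bases, and it also acts by contact with other factors such as AP-1. The transcripts of Fkbp5, Sgk1, Tsc22d3, Zbtb16, Pdk4, Errfi1, Cdkn1a and Mt2 are known to rise after glucocorticoids in many tissues, although each also answers to other signals.

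The sequence before a start of Sgk1 and those before the 3 annotated starts of Tsc22d3 are shown because these genes had the largest differences among the 10, and because that of Sgk1 holds the full palindrome. RefSeq windows (GRCm38.p6, 300 bases, from 250 before to 50 after an annotated start) were found for 8 of the 10 genes, 17 windows in all; none was found for Nr3c1 and Zbtb16. The bases before the start are printed 5′ to 3′ on the strand of the gene. Capitals mark the palindrome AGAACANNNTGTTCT or its half-site AGAACA, searched on both strands, and a half-site can be part of the palindrome.
Sgk1, chr10:21993640-21993889, + strand: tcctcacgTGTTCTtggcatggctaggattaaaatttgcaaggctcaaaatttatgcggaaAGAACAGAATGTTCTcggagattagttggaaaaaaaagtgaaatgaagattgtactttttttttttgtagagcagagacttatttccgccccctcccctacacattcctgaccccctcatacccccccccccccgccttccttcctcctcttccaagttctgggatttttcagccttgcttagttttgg
Tsc22d3 start a, chrX:140542669-140542918, - strand: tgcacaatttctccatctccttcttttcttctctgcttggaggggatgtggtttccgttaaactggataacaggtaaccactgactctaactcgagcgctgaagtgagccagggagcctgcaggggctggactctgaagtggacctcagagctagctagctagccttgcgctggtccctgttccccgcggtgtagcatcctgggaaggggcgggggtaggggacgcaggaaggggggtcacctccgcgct
Tsc22d3 start b, chrX:140548572-140548821, - strand: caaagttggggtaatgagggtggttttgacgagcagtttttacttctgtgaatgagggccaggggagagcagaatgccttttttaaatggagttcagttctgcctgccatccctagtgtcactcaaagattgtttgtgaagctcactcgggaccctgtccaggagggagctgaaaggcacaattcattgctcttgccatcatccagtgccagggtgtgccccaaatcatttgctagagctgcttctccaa
Tsc22d3 start c, chrX:140600523-140600772, - strand: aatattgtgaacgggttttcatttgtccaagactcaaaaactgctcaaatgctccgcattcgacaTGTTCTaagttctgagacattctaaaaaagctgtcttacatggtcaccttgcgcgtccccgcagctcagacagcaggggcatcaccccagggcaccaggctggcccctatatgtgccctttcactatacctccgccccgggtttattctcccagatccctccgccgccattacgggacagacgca
The palindrome stood in 1 of the 17 windows, at bases 62 to 76 of this Sgk1 window as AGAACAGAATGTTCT, and in 3 of all 32851 windows (0.00913%). The other 5 Sgk1 windows did not hold it. Its half-site was in 4 windows of Sgk1 and Tsc22d3 together, among them that of Tsc22d3 start c (bases 66 to 71), and in 19% of all windows. A looser form, GNACANNNTGTNC, which every full palindrome also matches, was found in the same 1 member window and in 0.475% of all windows. GTCA, the core of the DRE motif that DREAM is known to bind, lay in 16 of the 17 windows and in 85.2% of all windows. These matches describe letters only, and the arrays measured no binding.

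Of the 24 probe sets 2 passed the threshold (adjusted p under 0.05, limma, Benjamini-Hochberg over 45037 probe sets), both of Tsc22d3 and both lower in L26, by 1.40-fold and 1.52-fold. This is 8.33% of the member probe sets, against 3.92% of all probe sets in either direction and 1.94% lower. Both calls read the same gene, and the members were chosen with earlier results of these data known, so these shares show no excess among the members. With arrays centred on their medians 1149 probe sets were lower and 717 higher, in place of 872 and 892, and the same 2 members passed. None of the 24 passed as higher, where 1.98% of all did and where 3 of the 24 had an unadjusted p under 0.05. In both directions 11 of the 24 had such a p, against 18.1% of all probe sets. The other 22 did not pass, among them all those of both receptors. By sign, 15 of the 24 had a lower and 9 a higher mean in L26, and the median difference was -0.11 on the log2 scale beside 0.01 over all probe sets. Without L26 replicate 3 the count was 1, since 1420772_a_at then had -0.43 (adjusted p = 0.0605), and without wild type replicate 1 it was 3. In whole tissue, fewer cells of a type and less RNA per cell cannot be told apart.

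Tsc22d3 encodes GILZ, a leucine zipper protein through which glucocorticoids restrain inflammatory transcription factors, and it is one of the most widely used transcripts of glucocorticoid action. Its probe set 1425281_a_at read 10.30, 10.51 and 10.44 on the log2 scale in the wild type mice and 9.81, 9.95 and 9.68 in the L26 mice. The groups did not overlap, and the gap between the highest L26 and the lowest wild type array was wider than the range within either group. Group means were 10.42 ± 0.11 for wild type and 9.81 ± 0.14 for L26 (SD, n = 3), so that L26 stood at -0.60 relative to wild type (SE 0.08, limma adjusted p = 0.00434). This call held under all 13 alternative settings, with differences from -0.67 to -0.54 and adjusted p from 0.000501 to 0.0224.

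The probe set 1420772_a_at had wild type values of 10.74, 10.94 and 10.82 and L26 values of 10.30, 10.50 and 10.23. These groups were apart as well, and the difference was -0.49 (SE 0.08, adjusted p = 0.0124, limma). After each probe set was centred on its own mean, these 2 differed by a root mean square of 0.06 over the 6 arrays, and they ranked all arrays alike, with L26 replicate 3 lowest and wild type replicate 2 highest.

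The remaining Tsc22d3 probe sets gave other values. On 1425557_x_at, which is open to related transcripts by its name ending in _x_at, the wild type arrays read 8.35, 8.49 and 8.35 and the L26 arrays 8.28, 8.27 and 7.98. All L26 values were lower, but the difference of -0.22 (SE 0.09, adjusted p = 0.226) did not pass. On 1444365_at the order was turned, with 5.60, 5.64 and 5.65 in wild type and 5.76, 5.80 and 5.87 in L26. Here L26 was the higher group without overlap, by 0.18 (SE 0.06, adjusted p = 0.122), at a level below the lower quartile of each array, which was 5.93 to 5.96. Which transcripts of Tsc22d3 each probe set reads is not given in the sources used here.

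**Figure D1:**
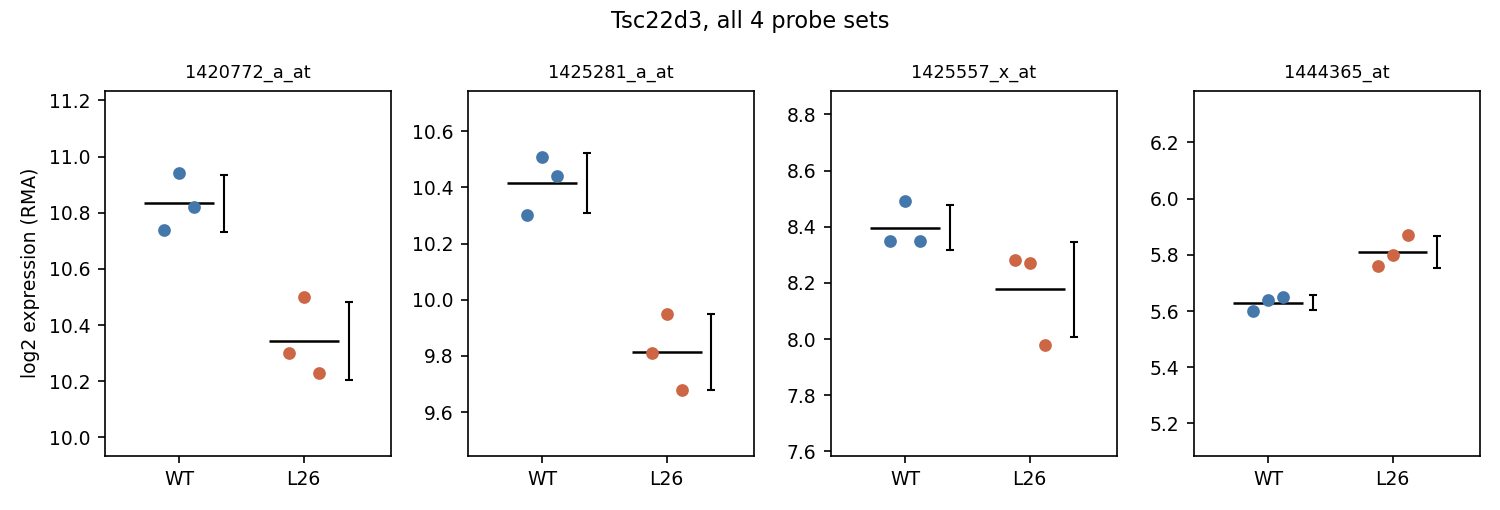
Log2 expression of the 4 Tsc22d3 probe sets, 1 point per array (blue wild type, orange L26), with the mean as a line and the SD (n = 3) as a bar beside it, each panel spanning the same log2 height. The L26 points lie below all wild type points on 3 probe sets, with differences of -0.49, -0.60 and -0.22, and above them on the dim 1444365_at (0.18).

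The genes whose pattern over the 6 arrays lay nearest to that of 1425281_a_at, by root mean square difference of mean-centred log2 values among 18193 genes, were Senp1 (0.03), Cobl (0.06) and Lrrc49 (0.08). Senp1 encodes a SUMO protease and Cobl an actin nucleator. Their own differences between the groups were -0.63, -0.60 and -0.54. All 3 passed as lower in L26. Differences near that of 1425281_a_at follow largely from the choice of genes by nearness to it. The likeness over these 6 arrays is a description without a test.

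Of the receptors, Nr3c1 had 6 probe sets, and their differences lay between -0.15 and 0.04, none past the threshold. Its brightest, 1421867_at, read 10.72, 10.75 and 10.90 in wild type and 10.70, 10.62 and 10.76 in L26. The groups overlapped, and the difference was -0.10 with a 95% interval from -0.25 to 0.06 (limma). Next in brightness, 1460303_at had 10.47, 10.53 and 10.50 in wild type and 10.54, 10.26 and 10.35 in L26, also with overlap (-0.12, interval -0.29 to 0.05). On 1457635_s_at, the Nr3c1 probe set with the smallest p, the difference was -0.15 (SE 0.07, adjusted p = 0.298), and its name marks it as open to related transcripts. The other 3 had -0.01, 0.02 and 0.04, and the first 2 of these changed sign in some alternative settings. The intervals of the 6 reach down to -0.30 on the log2 scale, so the data bound a change of Nr3c1 and do not show that there was none.

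Nr3c2, the mineralocorticoid receptor gene, had 1 probe set, 1435991_at. It read 11.30, 11.10 and 11.24 in the wild type mice and 11.43, 11.43 and 11.35 in the L26 mice. Every L26 array lay above every wild type array, by a mean of 0.19 (SE 0.07, interval 0.04 to 0.34), but the adjusted p of 0.165 missed the threshold.

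Fkbp5 encodes a co-chaperone that binds the receptor complex and lowers its affinity for hormone, in a short feedback loop. On 1416125_at the wild type arrays read 9.95, 9.94 and 9.91 and the L26 arrays 10.01, 10.02 and 9.97. On 1448231_at they read 8.95, 8.99 and 8.93 against 9.06, 9.21 and 9.13. In both cases L26 was higher without overlap, by 0.07 (SE 0.05, adjusted p = 0.567) and 0.18 (SE 0.06, adjusted p = 0.15), and neither passed. The last, 1447736_at, was dim at 5.05 to 5.30 over all arrays, with a difference of -0.12 (SE 0.07). Fkbp5, on the means of its brighter probe sets, thus had the opposite sign to Tsc22d3, although both are standard reporters of the glucocorticoid receptor, and a difference between the genes was not tested.

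**Figure D2:**
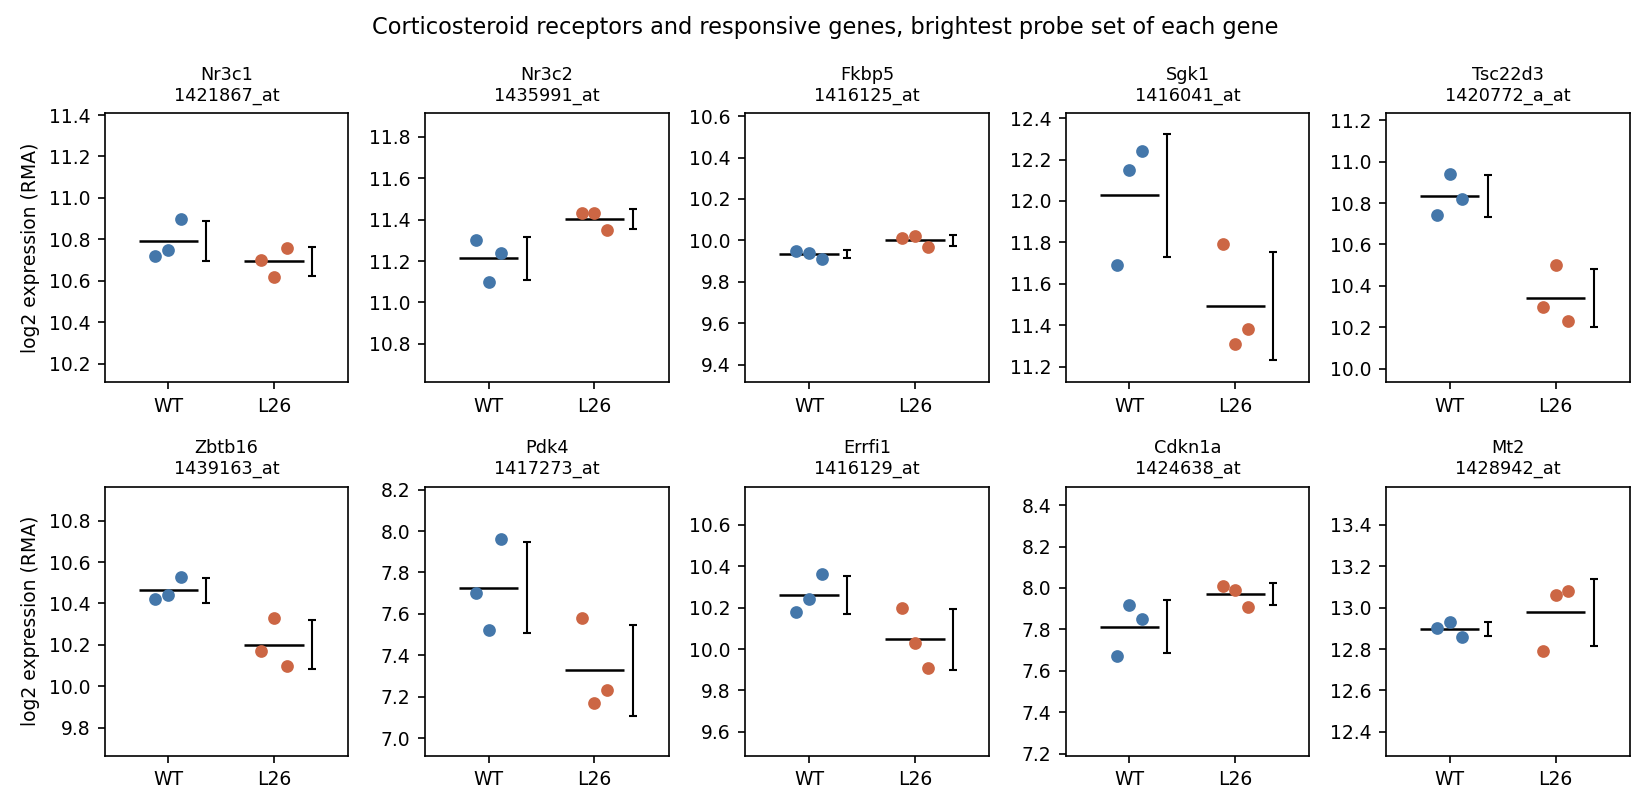
Log2 expression of the brightest probe set of each of the 10 genes, 1 point per array (blue wild type, orange L26), with the mean as a line and the SD (n = 3) as a bar beside it, and the same log2 height in every panel. Tsc22d3 and Zbtb16 lie lower in L26 and Nr3c2 and Fkbp5 higher, each without overlap, and of these 4 probe sets that of Tsc22d3 passed; Sgk1 has the widest spread within the groups.

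Among the kinases, Sgk1 encodes a serum- and glucocorticoid-induced kinase that regulates ion channels and transporters. Its single probe set, 1416041_at, read 11.69, 12.15 and 12.24 in wild type and 11.79, 11.31 and 11.38 in L26. L26 replicate 1 lay above wild type replicate 1, so the groups overlapped. The mean difference of -0.53 lay between those of the called Tsc22d3 probe sets, but with an SE of 0.16 (interval -0.89 to -0.18) it did not pass (adjusted p = 0.106, limma). Without wild type replicate 1 it was -0.70 and passed (adjusted p = 0.0313).

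Pdk4 encodes a kinase that shuts off pyruvate dehydrogenase and so spares glucose in fasting. Its probe set 1417273_at had 7.70, 7.52 and 7.96 in wild type and 7.58, 7.17 and 7.23 in L26. Again L26 replicate 1 fell within the wild type range, and the difference of -0.40 (SE 0.13, adjusted p = 0.135) did not pass.

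Errfi1 encodes an inhibitor of the epidermal growth factor receptor. On 1416129_at it read 10.18, 10.24 and 10.36 in wild type and 10.20, 10.03 and 9.91 in L26. The groups overlapped through L26 replicate 1, and the differences of its 2 probe sets were -0.21 (SE 0.08, adjusted p = 0.212) and -0.18 (SE 0.08, adjusted p = 0.308), without a call.

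Zbtb16 encodes PLZF, a zinc finger repressor. On 1439163_at the wild type arrays read 10.42, 10.44 and 10.53 and the L26 arrays 10.17, 10.33 and 10.10. The L26 values were all lower, and the difference of -0.26 (SE 0.07) came close to the threshold (adjusted p = 0.0816). With an intensity trend and a robust prior it passed (adjusted p = 0.0341). On 1419874_x_at, open to related transcripts, the L26 arrays were again all lower, at 9.43 to 9.55 against 9.61 to 9.75, a difference of -0.19 (SE 0.06). The remaining Zbtb16 probe set, 1427638_at, had -0.01 (SE 0.08) with overlapping groups, and its sign changed in some alternative settings.

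Cdkn1a, the gene of the cell cycle inhibitor p21, had differences of 0.13 (SE 0.11) and 0.16 (SE 0.07, adjusted p = 0.305) on its 2 probe sets. The brighter one, 1424638_at, read 7.67, 7.92 and 7.85 in wild type and 8.01, 7.99 and 7.91 in L26, with an overlap of 0.01 only between wild type replicate 2 and L26 replicate 3. Mt2, a metallothionein gene that binds zinc and answers to metals as well as to glucocorticoids, read 12.90, 12.93 and 12.86 in wild type and 12.79, 13.06 and 13.08 in L26. Its L26 values fell on both sides of the wild type values, and the difference was 0.08 (SE 0.08, adjusted p = 0.669).

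**Figure D3:**
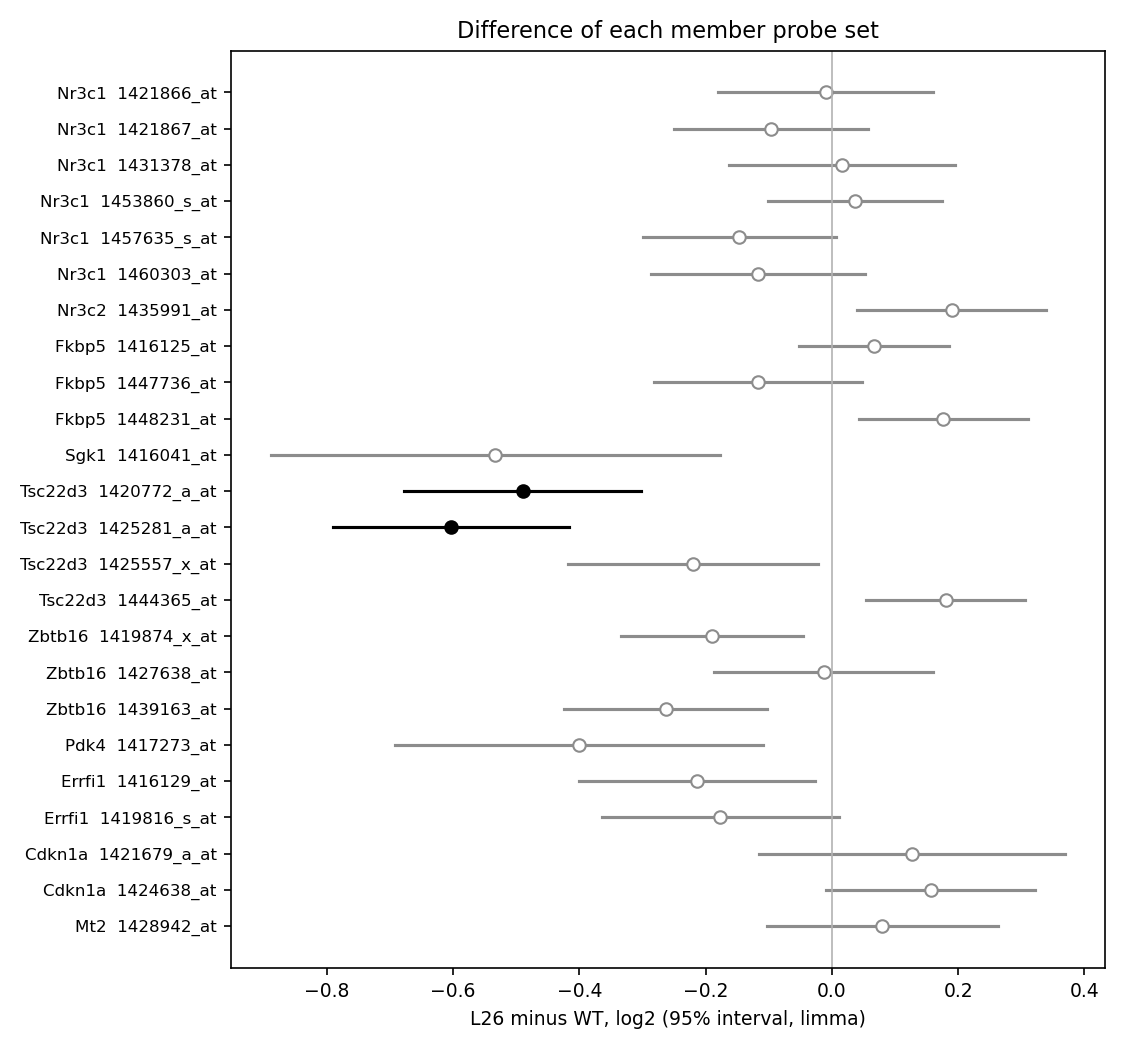
Difference of each of the 24 member probe sets, L26 minus wild type on the log2 scale, with its 95% interval from limma; filled black points passed an adjusted p of 0.05. Both black points belong to Tsc22d3 (-0.49 and -0.60), and the widest interval below 0 is that of Sgk1 (-0.89 to -0.18).

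Counted by overlap, 5 of the 24 probe sets had all L26 values below all wild type values (20.8%, against 9.32% of all probe sets), namely 3 of Tsc22d3 and 2 of Zbtb16. For 4 all L26 values were above (16.7%, against 12.5%), namely the Nr3c2 probe set, 2 of Fkbp5 and the dim one of Tsc22d3. Overlap was counted on values that were not centred, and array medians were 7.27 to 7.29 in wild type and 7.30 to 7.32 in L26. With arrays centred on their medians these differences were 0.16 for Nr3c2, 0.04 and 0.15 for Fkbp5 and 0.15 for Tsc22d3. Both directions thus occurred among the 10 genes. Several of these probe sets read the same gene, and the members were chosen with earlier results of these data known. These shares therefore show no excess among the members.

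The arrays also differed from each other within the groups, and not in the same way for all genes. Sgk1 had its lowest wild type value on replicate 1, where the mean of 12 activity-induced transcripts (immediate early genes) was lowest too (9.245, against 9.735 and 9.60 on the others). Errfi1 and both called Tsc22d3 probe sets were lowest there in wild type as well, whereas Pdk4 was lowest on replicate 2. Wild type replicate 1 also had the lowest mean of choroid plexus markers (8.85, against 9.57 and 9.68) and of microglia markers (9.38, against 9.50 and 9.52). The mean of astrocyte markers was highest there (11.52, against 11.50 and 11.45), and that of hippocampal neuron markers was not the lowest. The orders of arrays described here were picked out after the values were seen. In L26, Sgk1, Pdk4 and Errfi1 had their highest value on replicate 1, as had the immediate early genes (8.72, against 8.60 and 8.56). Such orders were not limited to members with a lower mean in L26. Cdkn1a on 1424638_at, with a higher mean in L26, ranked the arrays within both groups as the immediate early genes did. Nr3c1 on 1460303_at also had its lowest wild type and its highest L26 value on replicate 1. The called Tsc22d3 probe sets followed the order of the immediate early genes over the wild type arrays (replicate 2 highest), but not over the L26 arrays, where they too were highest on replicate 2. Of the immediate early genes 9 of 12 fell between the groups, where 2.57% of all 18193 genes did. Their part in the values of Sgk1, Pdk4, Errfi1 and Tsc22d3 was not tested.

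**Figure D4:**
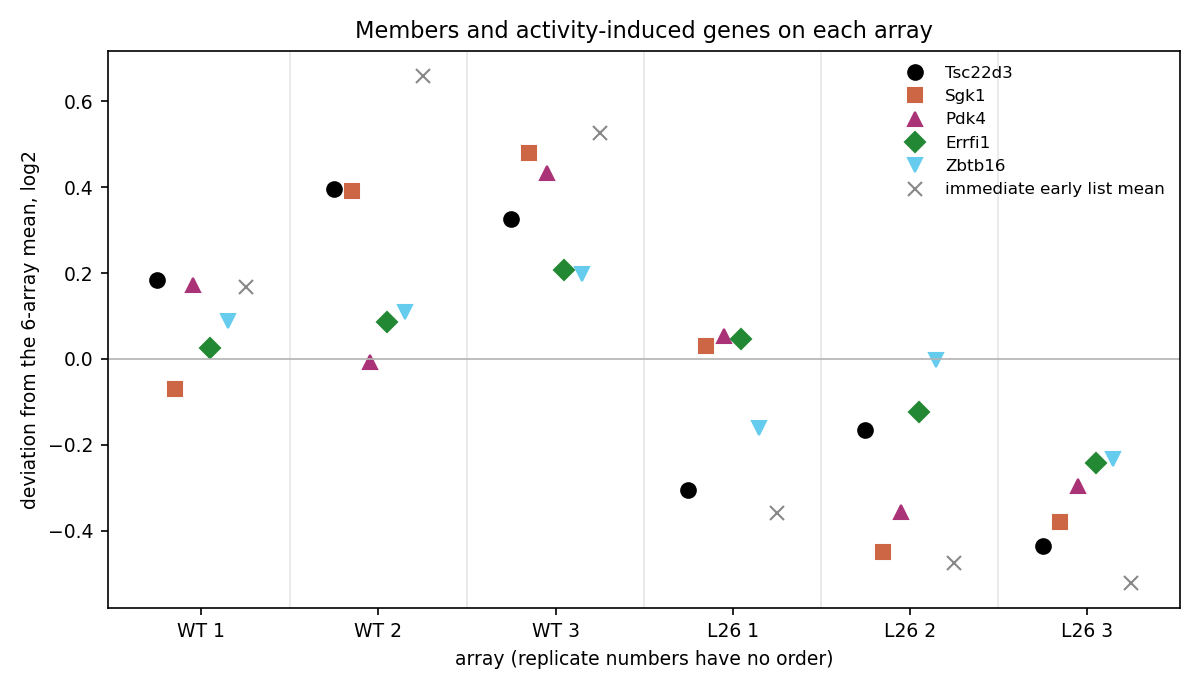
Deviation of each array from the mean of all 6 on the log2 scale, for 1 probe set each of Tsc22d3 (1425281_a_at), Sgk1, Pdk4, Errfi1 and Zbtb16 and for the mean of 12 immediate early genes. Tsc22d3 is at 0.18 or above on the wild type arrays and at -0.16 or below on the L26 arrays, while Sgk1 reads -0.07 on wild type replicate 1 and 0.03 on L26 replicate 1.

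Some markers of cell types differed between the groups on the same arrays, where over all genes 2.63% passed as higher and 5.19% in either direction. Oligodendrocyte markers passed as higher for 11 of 14 genes, with a list mean of 11.07 to 11.15 in wild type and 11.33 to 11.56 in L26. Endothelial and mural markers did so for 9 of 14, from 8.71 to 8.73 against 9.09 to 9.165. Markers of hippocampal neurons, which were measured well above the array medians of 7.27 to 7.32 as a list, passed as higher for 5 of 16, from 10.53 to 10.55 against 10.72 to 10.77. Another 5 of these 16 had a lower mean in L26, among them Dsp (-0.17) and Rbfox3 (-0.12), whose groups did not overlap, and the pan-neuronal Snap25 (-0.08) and Syt1 (-0.03), and none of them passed. These 3 list means did not overlap (exact permutation p = 0.1 each, the smallest that 3 arrays against 3 allow). Astrocyte (11.45 to 11.52 against 11.51 to 11.525) and choroid plexus means (8.85 to 9.68 against 8.88 to 9.96) overlapped, and microglia means did too (9.38 to 9.52 against 9.49 to 9.55), although 5 of 11 microglia genes passed, Fcer1g, C1qb, C1qc and Csf1r as higher and P2ry12 as lower. Of the astrocyte markers S100b passed as lower, and of the choroid plexus markers Kcne2 did. RMA values have no 0, so no marker can be called absent. Whether these differences have a part in the values of Tsc22d3 or the other members was not tested.

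Beyond the 10 genes, 27 further genes commonly described as raised by glucocorticoids were measured, each by its brightest probe set. Of these 5 fell, 2 rose and 20 did not pass (adjusted p under 0.05 over 18193 genes, where 2.57% fell, 2.63% rose and 5.19% passed in all). The list was chosen with earlier results of these data known, so its counts beside those shares are a description and no independent excess. Over all genes 467 fell and 478 rose, and 690 and 382 with arrays centred on their medians, where 6 of the 27 fell and 2 rose. The list median was 0.02, beside 0.01 over all genes. The genes that fell were Dusp1 (-1.34, SE 0.11), a MAP kinase phosphatase gene, Ccn2 (-0.69, SE 0.08), a matricellular protein gene, Per1 (-0.55, SE 0.11), a clock repressor gene, Cebpb (-0.29, SE 0.06), a transcription factor gene, and Ddit4 (-0.28, SE 0.07), whose product restrains mTORC1. Neuronal activity is known to induce Dusp1 and Per1 as well.

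Dusp1 gave the clearest separation, with 10.69, 11.13 and 11.11 in wild type and 9.73, 9.61 and 9.57 in L26 (adjusted p = 0.00037, limma). Those that rose were Acot1 (0.55, SE 0.06), an acyl-CoA thioesterase gene, and Fam107a (0.32, SE 0.06), a gene of an actin-associated protein. Fam107a read 13.26, 13.38 and 13.42 in wild type and 13.73, 13.70 and 13.60 in L26, and of its other probe sets 1434203_at rose too, by 0.43, while 1435918_at had 0.18 (adjusted p = 0.308 over probe sets) and did not pass. The other Cebpb probe set, 1427844_a_at, had -0.20 (adjusted p = 0.128 over probe sets) and did not pass either. Ddit4, read by 1428306_at, passed over genes (limma adjusted p = 0.0477) but not over probe sets (0.0593), the correction used for the members. Below the threshold stood Plekhf1 (-0.47, adjusted p = 0.068), Nfkbia (-0.30, adjusted p = 0.128) and Klf15 (-0.22, adjusted p = 0.188). Dusp1, Per1, Ddit4, Plekhf1, Nfkbia and Klf15 had their lowest wild type and highest L26 value on replicate 1 of each group, as Sgk1 did, a pattern picked out after the values were seen. Fam107a, which rose, had this pattern too, whereas Ccn2 and Cebpb, which fell, did not. The marker values given above come from these same arrays, and their part in this list was not tested.

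Single arrays weighed on this count. It was 3 without wild type replicate 2 or without L26 replicate 2, and 4 without wild type replicate 3 or without L26 replicate 1. Dusp1, Ccn2 and Acot1 passed in all 14 settings that kept the threshold, whereas Ddit4 passed in 7, and Per1, Cebpb and Fam107a in 9 each.

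**Figure D5:**
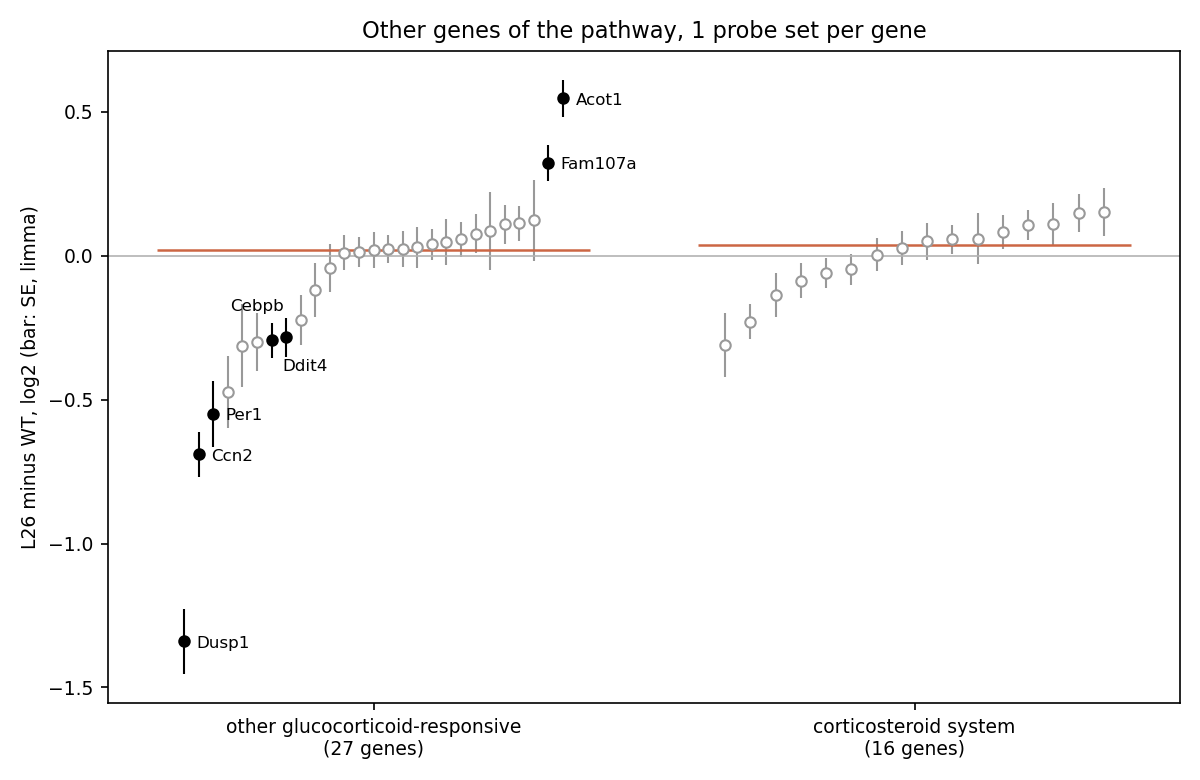
L26 minus wild type on the log2 scale for 27 other glucocorticoid-responsive genes and 16 genes of the corticosteroid system, 1 probe set per gene, with the SE from limma; black points passed an adjusted p of 0.05 and the orange line is the list median (0.02 and 0.04). The left list reaches from -1.34 (Dusp1) to 0.55 (Acot1), the right one from -0.31 to 0.15.

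In the corticosteroid system itself, 16 genes of receptor chaperones, coregulators, steroid-converting enzymes and corticotropin-releasing hormone signalling were measured. None passed with limma, 2 of the 16 had an unadjusted p under 0.05 against 20.3% of all genes, and the list median was 0.04. Crhr1, a receptor gene of corticotropin-releasing hormone, read 8.10, 8.24 and 8.05 in wild type and 7.88, 7.90 and 7.92 in L26. It was lower without overlap, but with -0.23 (SE 0.06, adjusted p = 0.0673) it did not pass. Ncoa3, a coactivator gene, had -0.31 (adjusted p = 0.162) and Abcb1a, whose pump carries corticosteroids out at the blood-brain barrier, had 0.15 (adjusted p = 0.247). The enzyme gene Hsd11b1, which regenerates active glucocorticoid in the cell, had -0.14 (interval -0.31 to 0.04), and the chaperone genes Hsp90aa1 and Fkbp4 had -0.06 and 0.05.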

How the data were processed

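The deposited values are log2 levels that the authors made with RMA and the affy package per the submitters' processing notes, with versions not given in the sources used here. Such values carry no detection calls, and differences of dim probe sets can come out too small. Of 45101 probe sets 64 array controls were left out, and 45037 were tested without a filter. Symbols came from the platform annotation (34945 probe sets with 1 symbol). Members were tested as probe sets, other lists by the brightest probe set of each of 18193 genes. The tool was limma 3.58.1 under R 4.3.3 (lmFit, eBayes, L26 minus wild type, two-sided, Benjamini-Hochberg over the whole table, threshold 0.05); list means were compared by exact permutation. Values after ± are SDs, SEs and 95% intervals are from limma, and the number of arrays limits precision. The members, lists and naming rule (every member probe set, listed genes past the threshold and up to 3 more of each pathway list, and the 3 genes most like the member with the smallest p) were chosen with earlier results of these data known. On simulated data of 45037 probe sets the fit recovered 49.3% of 67 changes of 0.5, 97% of 67 changes of 1 and 100% of 66 changes of 2 (log2), with 5 false among 169 calls. The simulated probe sets varied independently of each other, and far fewer were changed than the 1764 called in the data. Recovery in the data can therefore differ from these shares. Alternatives were a replicate block, each array left out, repeated quantile normalization, median centring, removal of the dimmest 40%, array weights, a robust prior with a trend, removal of _x_at and _s_at probe sets, the mean of a gene's probe sets and a threshold of 0.1.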

Additional observations from a re-analysis of the deposited data

How the results depend on the processing

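Of the 24 member probe sets, 21 did not change sign under any alternative tried, and 1425281_a_at of Tsc22d3 kept its call as well. The 3 that turned were near 0 throughout and never passed. These were 1421866_at of Nr3c1 (main value -0.01, 0.0037 with array weights, -0.0733 to 0.0667 with single arrays left out), 1431378_at of Nr3c1 (0.02, -6e-04 after repeated quantile normalization, -0.0133 after median centring, -0.0417 to 0.0783 with arrays left out) and 1427638_at of Zbtb16 (-0.01, 0.005 with array weights, -0.0583 to 0.055 with arrays left out). Median centring also turned the mean shift of the astrocyte markers from 0.025 to -0.005. With single arrays left out, 1 to 3 member probe sets, 3 to 6 of the other glucocorticoid-responsive genes, 0 to 1 of the corticosteroid system genes, 810 to 1430 of all probe sets and 401 to 696 of all genes passed, in place of 2, 7, 0, 1764 and 945, on fewer arrays. At a threshold of 0.1 these were 3167 probe sets and 1734 genes. Crhr1 was the 1 corticosteroid system gene that passed at that threshold, after median centring, without the dimmest 40% and with the mean of a gene's probe sets, and Ncoa3 the 1 without wild type replicate 1. The replicate numbers are not said to pair animals. Correlations of deviations were -0.04, -0.07 and 0.15 for equal numbers and from -0.15 to 0.19 for unequal ones. With 3 arrays per group these values cannot settle whether arrays were paired. With the replicate block 4 of the 27 responsive genes passed and both Tsc22d3 calls held. The cause of these changes was not tested.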
